A study of Mus musculus with 8 samples.

Results

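Transcript levels of the ubiquitin-specific proteases and of the ubiquitin C-terminal hydrolases were followed through mouse male germ cell development. The members were the genes with a current symbol of the Usp or Uchl series, taken from probe sets annotated to exactly 1 gene. By this rule 51 of 18193 genes were members, measured by 126 probe sets on Mouse 430 2.0 oligonucleotide arrays. There were 8 arrays, 2 replicates for each of 4 stages: spermatogonia of type A and of type B, spermatocytes at pachytene, and round spermatids. All mice had the mixed strain background labelled BL/6-129, and no genotype, treatment, age or purification method was given. The series' design text states that the germ cell preparations were independent, but not whether animals were pooled for each. Uchl3 had no probe set of its own, and its signal is described only through a probe set listed for Uchl3 and Uchl4 together. Usp35 and Usp51 were not analysed here.

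Ubiquitin is a small protein that is attached to other proteins to mark them for degradation or to change their activity, and deubiquitinases cut it off again. The ubiquitin-specific proteases form the largest deubiquitinase family, while the Uchl hydrolases are small enzymes that trim short tails from ubiquitin. Spermatogenesis uses this system heavily, because ubiquitin marks the silenced sex chromosomes in meiosis and because histones and much cytoplasm are removed as spermatids mature. Type A and type B spermatogonia divide by mitosis, pachytene spermatocytes are in meiotic prophase, and round spermatids are haploid.

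The stage labels were checked with marker genes. All 6 spermatogonial markers tested, such as Kit and Stra8, were lower in pachytene than in type A arrays, and all 8 pachytene markers, such as Ldhc and Piwil1, were higher. Of 8 round spermatid markers, 7 were higher in spermatid than in pachytene arrays. The check had limits. All 8 spermatid markers also rose from type A to pachytene, and 3 of 6 spermatogonial markers rose from pachytene to spermatid. Of the 8 pachytene markers, 0 were higher and 2 lower in spermatid than in pachytene arrays. None of these markers was called between type B and type A arrays, so they do not tell those 2 labels apart. The type B arrays stood apart from each other. The summed signal of the 8 spermatid markers was 97.4 for type B replicate 1 but 1581 for replicate 2, with 105.4 to 140.8 in type A and 2300 to 2729 in pachytene arrays. The 8 pachytene markers summed to 3378 and 9448 on the same arrays and the 6 spermatogonial markers to 4929 and 3034. Markers of somatic testis cells were also present. The 8 Sertoli cell markers summed to 5803 to 7961 in type A, 4303 to 5642 in type B, 2664 to 3422 in pachytene and 547.8 to 633.8 in spermatid arrays. The 8 stromal and endothelial markers summed to 10600 to 13340 in type A and 15180 to 16450 in type B, but to only 795.1 to 1277 on the later arrays. The 7 macrophage and blood markers and 4 Leydig cell markers measured summed to 581.2 to 1199 and 630.9 to 1497 on the spermatogonial arrays, and to 223.1 to 488.8 and 88.5 to 945 on the later ones. The Sertoli, stromal and macrophage sums fell from spermatogonial to pachytene arrays, and the Sertoli and Leydig sums fell from pachytene to spermatid arrays. In that last step the macrophage and blood sum rose, from 234.3 and 223.1 to 488.8 and 464.7. The part of these cells in the results below was not tested.

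Signals are MAS5 values on a linear scale, set to an equal trimmed mean on every array, so each value is relative to the rest of its array. Changes are differences in log2(signal + 16), given with the standard error of a limma fit over all 8 arrays (2 arrays against 2) and called at a Benjamini-Hochberg adjusted p under 0.05. Of the 51 members, 48 were tested. Uchl4, Usp18 and Usp29 stayed near background, with signals of 0.4 to 39.9 on every array, and were left out because they did not exceed the array median on at least 2 arrays. Where signal fell, fewer expressing cells and less transcript per cell cannot be told apart in these bulk preparations.

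From type A spermatogonia to pachytene spermatocytes, 17 of the 48 tested members rose and 17 fell. Usp2, Usp50, Usp1, Usp44, Usp8, Usp20, Usp4 and Usp15 had the largest rises with the added constant of 16, and Uchl1, Usp9y, Usp9x, Usp26, Usp33, Usp22, Usp11 and Usp28 the largest falls. These counts are 35.4% of members in each direction, where 27.2% of all 14155 genes tested were called higher and 35.6% lower. The median change was -0.12 over members and -0.145 over all genes. The split between directions depended on how the arrays were scaled. Centring on the 75th percentile or the median, which moved the median of all genes by 0.38 and 0.33, gave 19 members higher and 14 lower in each case, and took the share of higher among all calls from 43.3% to 58.5% and 56.3%. Against type B spermatogonia, 17 members were higher in pachytene cells and 14 lower (background 25.5% and 32.7%). This comparison shares the pachytene arrays with the previous one, and without type B replicate 2 it gave 15 and 14.

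**Figure D1:**
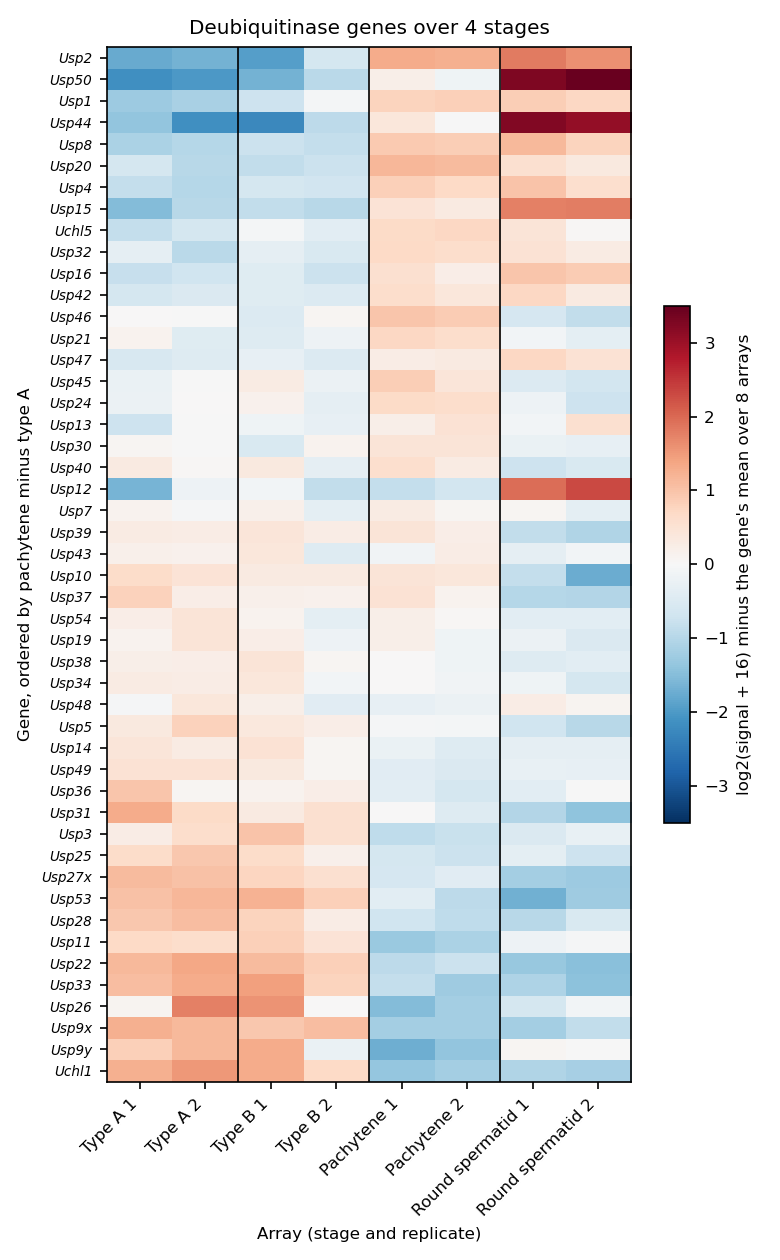
Heat map of log2(signal + 16) minus each gene's mean over the 8 arrays, for the 48 tested members (rows, ordered by the change from type A to pachytene) on the 8 arrays (columns, grouped by stage). Red is above and blue below the gene's mean; Usp50, Usp44 and Usp12 are reddest on the spermatid arrays, and Uchl1, Usp9x and Usp22 are red on the spermatogonial arrays and blue on the later ones.

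Uchl1, a hydrolase abundant in neurons and widely used as a spermatogonial marker, had signals of 1266 and 1527 in type A and 1318 and 857.2 in type B arrays. Pachytene arrays read 193.3 and 218.5, and spermatid arrays 244.0 and 224.4. All 4 spermatogonial values thus lay above all 4 later values, with type B replicate 2 the lowest of them. Uchl1 fell by 2.67 ± 0.24 log2 from type A to pachytene (adjusted p = 1.11e-04), the largest fall of any member at this added constant. With a constant of 4 it fell by 2.73, less than Usp9y (-2.79) and Usp26 (-2.94). From pachytene to spermatid it read 0.17 ± 0.24 (adjusted p = 0.639, 95% interval -0.39 to 0.74).

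The probe set listed for Uchl3 and Uchl4 ran the other way. It read 405.7 and 389.9 in type A, 681.3 and 856.0 in type B, 1215 and 1423 in pachytene and 1399 and 1513 in spermatid arrays. The stages did not overlap up to the pachytene arrays, and the pachytene and spermatid ranges did overlap. The separate probe set of Uchl4 stayed between 0.4 and 12.0, so a Uchl4 signal was not seen there, although 1 probe set cannot settle the source of the shared one. The log2 difference between Uchl1 and the shared probe set, of which only the change between arrays has a meaning, averaged 1.12 ± 0.85 (SD, n = 4) on the spermatogonial arrays and -2.57 ± 0.097 (SD, n = 4) on the later arrays. It fell by 3.69 (exact two-sided permutation test over 70 splits, p = 0.0286, the smallest that 4 arrays against 4 can give). Of this, Uchl1 gave -2.39 and the shared probe set 1.30. Each side of 4 arrays pools 2 stages, and type A (1.60 and 1.93) lay above type B (0.94 and 0.002). The SD of the spermatogonial arrays thus includes a difference between stages, and the p does not measure the spread of replicates.

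Uchl5, which cuts ubiquitin at the proteasome and also sits in the INO80 chromatin remodelling complex, read 396.0 and 461.4 in type A and 677.2 and 551.6 in type B. It read 1153 and 1195 in pachytene and 975.2 and 733.8 in spermatid arrays. The rise to pachytene was 1.42 ± 0.22 log2 (adjusted p = 7.45e-04). The step to spermatids was -0.46 ± 0.22 (adjusted p = 0.141), with no overlap between the arrays of the stages. A second, dimmer probe set of Uchl5 was called lower in this step (-0.98 ± 0.23, adjusted p = 0.0144), and so was the mean of both (-0.72, adjusted p = 0.0171).

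**Figure D2:**
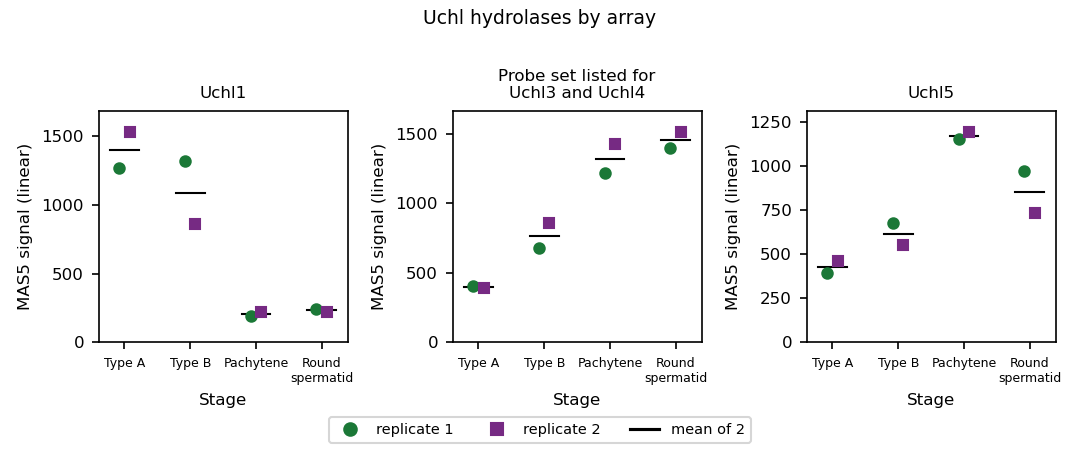
MAS5 signal (linear, y axis from 0) of Uchl1, of the probe set listed for Uchl3 and Uchl4, and of Uchl5 at each stage (x axis). Circles are replicate 1, squares replicate 2 and bars the mean of the 2 arrays. Uchl1 drops from 857.2 or more to 244.0 or less. The other panels rise up to pachytene, and Uchl5 reads lower in spermatid than in pachytene arrays.

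The stretch of 250 bases before the annotated start is shown for 3 members whose transcripts took different courses: Usp50, with its highest signal in spermatids, Usp2, high from pachytene on, and Uchl1, high in spermatogonia. Sequences are from RefSeq on GRCm38.p6, written 5′ to 3′ on the gene's strand, with CpG dinucleotides in capitals. They are Usp50 at chr2:126783461-126783710 (minus strand), Usp2 at chr9:44084670-44084919 (plus strand) and Uchl1 at chr5:66675871-66676120 (plus strand).
Usp50: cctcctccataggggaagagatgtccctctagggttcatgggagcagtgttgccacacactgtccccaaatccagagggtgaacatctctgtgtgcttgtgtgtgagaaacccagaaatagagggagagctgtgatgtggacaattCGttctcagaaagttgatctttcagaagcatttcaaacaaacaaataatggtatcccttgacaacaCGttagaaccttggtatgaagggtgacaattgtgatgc
Usp2: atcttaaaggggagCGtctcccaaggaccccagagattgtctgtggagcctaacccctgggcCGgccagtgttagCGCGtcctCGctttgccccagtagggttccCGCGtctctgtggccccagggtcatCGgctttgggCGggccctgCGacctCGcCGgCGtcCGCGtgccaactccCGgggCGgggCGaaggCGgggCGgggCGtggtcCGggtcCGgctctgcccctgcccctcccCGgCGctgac
Uchl1: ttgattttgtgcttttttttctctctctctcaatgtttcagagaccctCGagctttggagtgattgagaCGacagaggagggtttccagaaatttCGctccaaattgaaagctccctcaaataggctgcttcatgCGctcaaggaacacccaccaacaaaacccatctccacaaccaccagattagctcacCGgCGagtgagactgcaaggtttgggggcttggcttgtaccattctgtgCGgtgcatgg

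The windows differ in CpG content, with 2 CpG in Usp50, 7 in Uchl1 and 25 in Usp2. Windows were at hand for 39 members, and their median CpG number was 23, against 6 over all 32851 windows of the table. The full cyclic AMP response element TGACGTCA, the site of the spermatid factor Crem, was in none of the 39 windows and in 1.55% of all windows, searched on both strands. Its shorter form TGACG, which the full element contains, was in 10 of the 39 windows (25.6%) and in 17.8% of all. These windows end at the annotated gene start, and whether testis transcripts start there was not tested.

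Of 7 tested proteases that remove ubiquitin from histones, 3 rose and 4 fell from type A to pachytene, where 27.2% of all genes rose and 35.6% fell. Usp22, the H2B deubiquitinase of the SAGA coactivator complex, read 677.7 and 798.2 in type A, 670.2 and 550.6 in type B, 152.9 and 171.7 in pachytene and 110.6 and 99.1 in spermatid arrays. It fell by 2.08 ± 0.20 log2 to pachytene (adjusted p = 1.29e-04), and no later array reached a spermatogonial one. Usp27x, an X-linked relative that shares SAGA partners, fell by 1.57 ± 0.19. Usp3, which acts on H2A, fell by 1.28 ± 0.23, and the H2B enzyme Usp49 by 0.95 ± 0.19. A second, dimmer probe set of Usp49 did not share its fall, with 33.0 and 11.8 in type A and 28.5 and 42.3 in pachytene arrays. Usp16 and Usp21, which act on H2A, rose by 1.16 ± 0.21 and 0.83 ± 0.24. From pachytene to spermatid Usp21 fell by 0.89 ± 0.24 (adjusted p = 0.0197).

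Usp44, an H2B deubiquitinase also known from the mitotic spindle checkpoint, also belongs to this group. It read 28.3 and 10.2 in type A, 8.4 and 45.4 in type B, 136.5 and 98.7 in pachytene and 1073 and 953.9 in spermatid arrays. The higher type B value was again replicate 2. Usp44 rose by 1.96 ± 0.43 log2 to pachytene (adjusted p = 0.00459) and by a further 2.96 ± 0.43 to spermatids (adjusted p = 0.00135). Because the spermatogonial signals were low, the first change depended on the added constant, from 1.13 with 64 to 2.49 with 4, and was called with both.

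Of 6 members linked to DNA damage and replication, 3 rose and 2 fell to pachytene, beside 27.2% and 35.6% of all genes. Usp1, which with Wdr48 deubiquitinates Fancd2 and Pcna, read 709.2 and 787.3 in type A, 1042 and 1642 in type B, 2977 and 3083 in pachytene and 3166 and 2887 in spermatid arrays. Its rise to pachytene was 2.00 ± 0.24 (adjusted p = 2.57e-04), and the pachytene and spermatid ranges overlapped. Usp47, which acts on DNA polymerase beta, rose by 0.80 ± 0.19, and Usp45, an enzyme of the Ercc1 repair nuclease, by 0.76 ± 0.25. Usp45 then fell by 1.19 ± 0.25 to spermatids, a call lost without pachytene replicate 1 or spermatid replicate 2 (adjusted p = 0.0622 and 0.0565). Usp28, a partner of the checkpoint factor Trp53bp1, fell by 1.80 ± 0.25 to pachytene, and the X-linked Usp11, which acts on Brca2 complexes, by 1.87 ± 0.20. Usp7, the protease of Mdm2 and p53, read 0.14 ± 0.24 (adjusted p = 0.656).

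Of the 3 proteases activated by the repeat protein Wdr48, Usp1 and Usp46 rose to pachytene, and from there Usp12 rose and Usp46 fell. Of all genes, 27.2% rose to pachytene, and 15.9% rose and 19% fell from there to spermatids. Usp46 rose by 0.92 ± 0.23 to pachytene and fell by 1.67 ± 0.23 to spermatids (adjusted p = 0.00102). Its signals were 371.6 and 351.9 in pachytene and 115.2 and 92.0 in spermatid arrays. A second probe set of Usp46 read 225.4 and 152.5 in type A, 168.8 and 191.4 in pachytene and 58.6 and 72.1 in spermatid arrays. On that probe set the type A and pachytene ranges overlapped, so the rise was not shared. Usp12, a close relative of Usp46, read 22.7 and 89.6 in type A and 96.3 and 50.8 in type B. It read 52.1 and 60.5 in pachytene and 447.1 and 582.0 in spermatid arrays. The rise of Usp12 to spermatids was 2.87 ± 0.45 (adjusted p = 0.00197), and the first 3 stages overlapped. It was measured by a probe set that was the brightest of Usp12 only on the spermatid arrays, and another fell in this step. Wdr48 itself read 288.3 and 382 in type A and 1912 and 2128 in pachytene arrays, a rise of 2.55 ± 0.24. Wdr20, which adds to the activation of Usp12 and Usp46, fell by 0.66 ± 0.22 to pachytene and rose by 1.27 ± 0.22 to spermatids. Wdr20rt, a Wdr20 relative, rose by 4.81 ± 0.81 to pachytene, and in type B it read 29.1 in replicate 1 and 387.4 in replicate 2.

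Among 4 members that act at the proteasome or recycle free ubiquitin chains, Uchl5 rose as given above and 2 fell to pachytene. Of all genes, 27.2% rose and 35.6% fell. Usp14, the proteasome-bound protease, fell by 0.70 ± 0.21 (adjusted p = 0.0197), and Usp5, which takes apart unanchored chains, by 0.63 ± 0.22 (adjusted p = 0.0364). Usp5 fell by a further 0.79 ± 0.22 to spermatids. Usp13, a relative of Usp5, exceeded the array median on only 2 arrays and read 0.74 ± 0.31 (adjusted p = 0.0673).

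Of 6 members of endosomes, membranes and organelles, 3 rose and 1 fell to pachytene, beside 27.2% and 35.6% of all genes. Usp8, an endosomal protease that is abundant in testis and has been placed near the acrosome, read 347.9 and 378.7 in type A, 449.7 and 431.1 in type B, 1488 and 1409 in pachytene and 1727 and 1343 in spermatid arrays. It rose by 1.95 ± 0.20 log2 (adjusted p = 1.45e-04), with no overlap between spermatogonial and later arrays. Stam, an endosomal partner of Usp8, fell by 1.92 ± 0.33, while the related Stam2 read 0.19 ± 0.29 (adjusted p = 0.601). Usp20 and Usp33 are close relatives that act on shared membrane receptors, and they moved apart. Usp20 rose by 1.93 ± 0.21, from 160.0 and 121.1 in type A to 587.0 and 563.7 in pachytene arrays. Usp33 fell by 2.24 ± 0.28, from 348.8 and 410.6 to 80.3 and 56.3. Usp32, a Golgi enzyme, rose by 1.27 ± 0.24, although another of its probe sets fell. Usp19 of the endoplasmic reticulum and Usp30 of mitochondria read -0.27 ± 0.25 and 0.42 ± 0.24, and neither passed.

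Of 6 members known from growth factor and inflammatory signalling, 2 rose and 3 fell to pachytene, beside 27.2% and 35.6% of all genes. Usp15, which acts on the TGF-beta receptor, read 204.5 and 307.3 in type A, 333.5 and 307.8 in type B, 872.3 and 769.5 in pachytene and 2166 and 2181 in spermatid arrays. It rose by 1.65 ± 0.23 to pachytene and by 1.39 ± 0.23 to spermatids (adjusted p = 4.47e-04 and 0.00227). Its paralog Usp4 rose by 1.68 ± 0.21 to pachytene and read 0.02 ± 0.21 after that. Usp25 fell by 1.48 ± 0.24, Usp31 by 1.20 ± 0.28 and the X-linked Usp9x by 2.38 ± 0.19. A second probe set of Usp25 did not share its fall, with 50.1 and 42.2 in type A and 55.3 and 52.5 in pachytene arrays. Usp34, which stabilises axin in Wnt signalling, read -0.32 ± 0.24.

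Of 4 members linked to the cell cycle, 2 rose to pachytene (Usp44 and Usp2), and from there 1 rose and 2 fell. Of all genes, 27.2% rose to pachytene, and 15.9% rose and 19% fell from there to spermatids. Usp2 had the largest rise of any member to pachytene with the added constant of 16, but not with 4 (3.05, against 3.36 for Usp50). Male mice that lack Usp2 are known to be subfertile. Its signals were 224.3 and 243.4 in type A, 198.5 and 519.5 in type B, 2009 and 1908 in pachytene and 2884 and 2477 in spermatid arrays. The rise was 2.98 ± 0.38 log2 (adjusted p = 3.06e-04), and the step to spermatids read 0.45 ± 0.38 (adjusted p = 0.413). A second probe set of Usp2 read 2081 and 2010 in pachytene and 1776 and 1407 in spermatids, so the sign of that last step was not shared between the probe sets. Usp37, which stabilises cyclin A, and Usp39, a splicing factor of the tri-snRNP with no known protease activity, read -0.20 ± 0.24 and 0.07 ± 0.19 to pachytene. They fell by 1.33 ± 0.24 and 1.31 ± 0.19 to spermatids (adjusted p = 0.00387 and 0.00139).

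Usp50, classed as an inactive member because it lacks catalytic residues, had the largest rise of any member to spermatids. It read 1.7 and 3.6 in type A, 9.1 and 24.9 in type B, 74.1 and 54.5 in pachytene and 738.9 and 852.0 in spermatid arrays. The pachytene values lay above the spermatogonial ones, and the spermatid values stood far above all others. All 4 spermatogonial values were below the medians of their arrays (41.5 to 51.9), so the order of type A and type B has little meaning. The changes were 2.10 ± 0.27 to pachytene (adjusted p = 3.23e-04) and 3.34 ± 0.27 to spermatids (adjusted p = 8.24e-05), and the first of these ran from 0.94 to 3.36 with the added constant at 64 and 4. Its second probe set read 10.6 and 12.8 in pachytene and 400.2 and 456.2 in spermatid arrays, which was called higher (adjusted p = 7.08e-05), while its step to pachytene was not called (0.48 ± 0.21, adjusted p = 0.0798). On this probe set type A (3.5 and 4.2) and type B (2.5 and 7.9) overlapped. A further probe set, listed for Usp50 and the RNA polymerase subunit gene Polr2l together, read 1219 to 1494 on the spermatogonial arrays and 554.8 to 671.6 later, and was not assigned to Usp50. Usp53 of tight junctions fell by 1.75 ± 0.27 to pachytene and by 0.82 ± 0.27 to spermatids. Usp54 read -0.21 ± 0.22 and -0.50 ± 0.22.

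**Figure D3:**
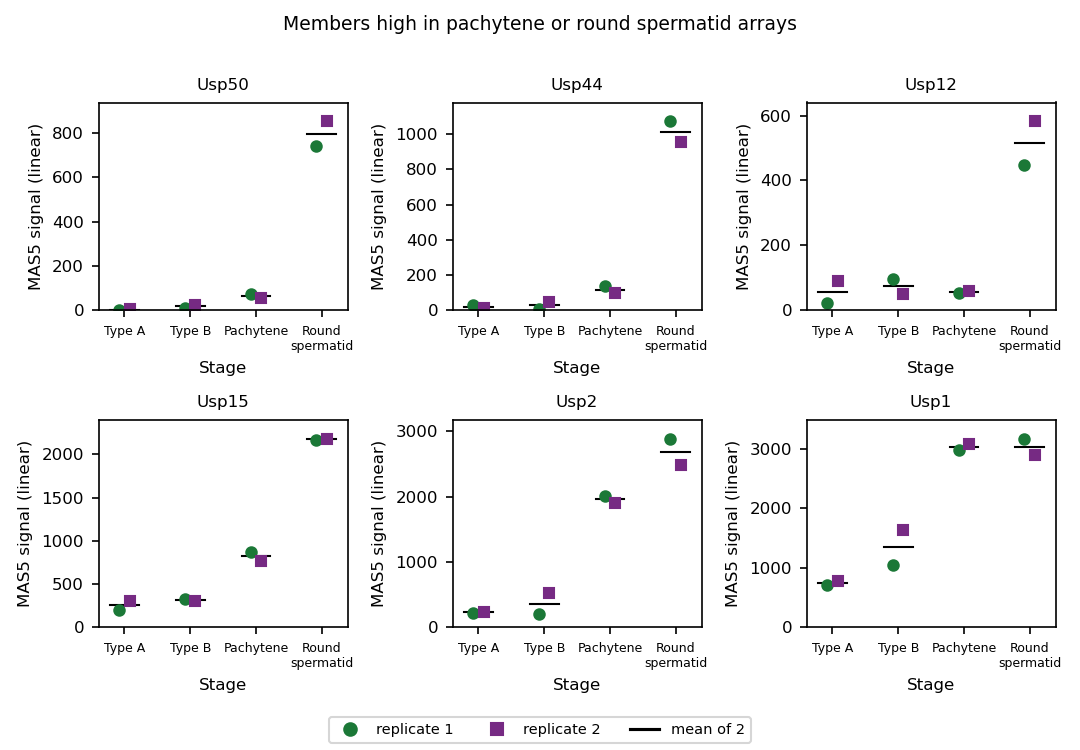
MAS5 signal (linear, y axis from 0, scaled per panel) of Usp50, Usp44, Usp12, Usp15, Usp2 and Usp1 by stage (x axis), with circles for replicate 1, squares for replicate 2 and bars for the mean of the 2 arrays. Usp50, Usp44 and Usp12 stand high only on the spermatid arrays, at 447.1 or more, while Usp2 and Usp1 are already high on the pachytene arrays. The Usp12 panel shows its probe set of highest mean, and another of its probe sets fell from pachytene to spermatid arrays.

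All 5 tested members on the sex chromosomes fell from type A to pachytene, with a median of -2.28, where 35.6% of all genes fell and their median was -0.145. The X chromosome and the Y chromosome are silenced together in the pachytene stage. Usp9x read 405.0 and 377.3 in type A, 329.6 and 365.0 in type B, 62.8 and 62.0 in pachytene and 62.7 and 82.0 in spermatid arrays. Its fall of 2.38 ± 0.19 had an adjusted p of 8.68e-05, and the step to spermatids read 0.16 ± 0.19 (adjusted p = 0.572). Its Y-linked homologue Usp9y read 298.4 and 373.0 in type A, 418.1 and 134.0 in type B, 38.2 and 52.3 in pachytene and 169.7 and 158.2 in spermatid arrays. Usp9y fell by 2.52 ± 0.44 to pachytene (adjusted p = 0.0013) and rose by 1.56 ± 0.44 to spermatids (adjusted p = 0.0248). That rise lost its call when any of the 4 pachytene and spermatid arrays was left out (adjusted p = 0.0696 to 0.129).

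Usp11 read 224.5 and 212.6 in type A, 245.9 and 190.3 in type B, 44.2 and 52.7 in pachytene and 113.9 and 128.6 in spermatid arrays. It rose by 1.09 ± 0.20 from pachytene to spermatid (adjusted p = 0.00415), and its spermatid values stayed below all 4 spermatogonial ones. Usp27x went on down, from 36.8 and 44.4 in pachytene to 18.7 and 17.0 in spermatids, a fall of 0.74 ± 0.19 (adjusted p = 0.017). These spermatid values lay below the medians of their arrays (33.7 to 37.3). In limma fits the fall was not called with a constant of 64 (-0.35, adjusted p = 0.0725) or with the mean of probe sets (-0.45, adjusted p = 0.11). A second probe set of Usp27x read 30.7 and 49.0 in pachytene and 32.7 and 34.5 in spermatids. The fall of Usp27x was no longer called without any 1 of the 4 arrays of those stages (adjusted p = 0.0564 to 0.117). Usp26, an X-linked gene known from testis, varied most between replicates, with 60.2 and 228.4 in type A and 195.7 and 56.1 in type B. It read 9.1 and 15.3 in pachytene and 31.1 and 50.9 in spermatids. Its fall of 2.28 ± 0.62 to pachytene (adjusted p = 0.0116) was lost without type A replicate 2 (-1.44, adjusted p = 0.0798) or pachytene replicate 1 (adjusted p = 0.0611). The following step read 1.00 ± 0.62 (adjusted p = 0.253).

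**Figure D4:**
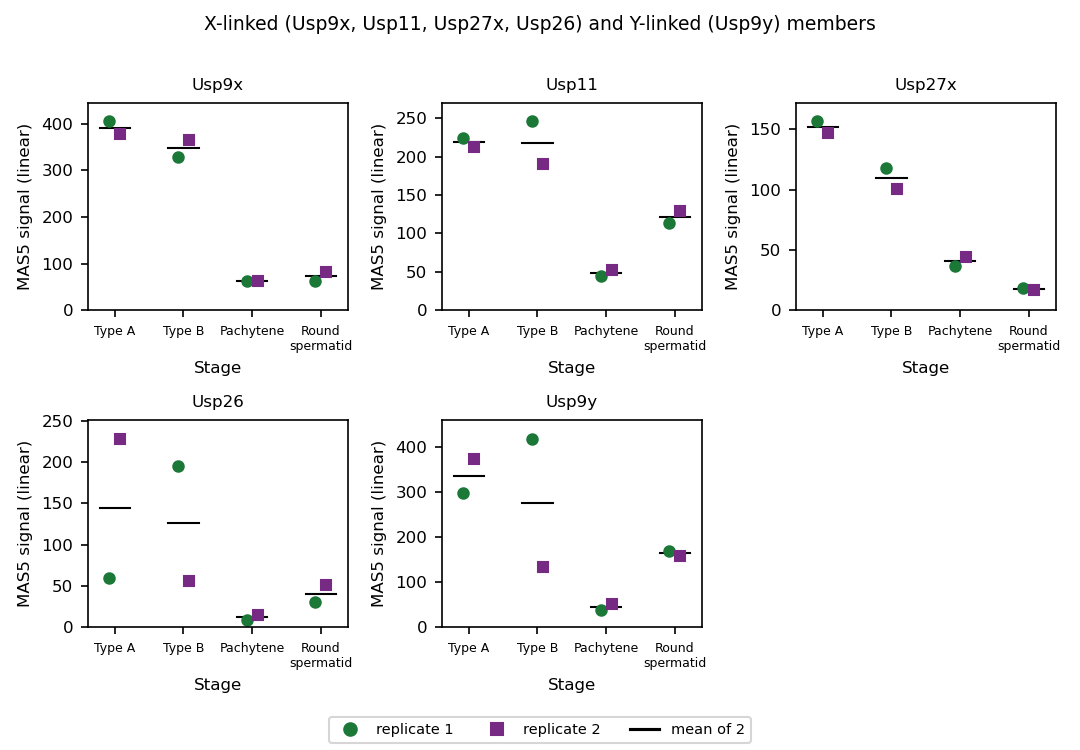
MAS5 signal (linear, y axis from 0, scaled per panel) of the X-linked members Usp9x, Usp11, Usp27x and Usp26 and the Y-linked Usp9y by stage (x axis); circles are replicate 1, squares replicate 2, bars the mean of the 2 arrays. Every panel is lowest in pachytene or spermatid arrays, and Usp9y and Usp11 are higher again in spermatids, at 158.2 to 169.7 and 113.9 to 128.6.

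From pachytene spermatocytes to round spermatids, 6 members rose and 13 fell, or 12.5% and 27.1% of the 48, against a background of 15.9% and 19% of all genes. In the same step 4 of 8 Sertoli markers and 4 of 4 Leydig markers were called lower, with sums of 2664 to 3422 and 516.8 to 945 in pachytene and 547.8 to 633.8 and 88.5 to 88.8 in spermatid arrays. Other somatic markers moved the opposite way. Of 6 macrophage and blood markers tested, 4 were called higher and 0 lower, and of 8 stromal and endothelial markers 3 and 0. The members that rose were Usp50, Usp44, Usp12, Usp9y, Usp15 and Usp11. The largest falls were of Usp10, Usp46, Usp37, Usp39, Usp45, Usp24, Usp40 and Usp31. Usp10, a cytosolic protease that binds the stress granule protein G3bp1, read 271.8 and 262.2 in pachytene and 102.0 and 47.4 in spermatid arrays, a fall of 1.71 ± 0.29 (adjusted p = 0.00254). Usp24, Usp40 and Usp31 fell by 1.09 ± 0.26, 1.06 ± 0.26 and 1.00 ± 0.28 (adjusted p = 0.0116, 0.015 and 0.0269). The calls of these last 3 were each lost without any 1 of 3 of the 4 arrays compared (adjusted p = 0.0541 to 0.172). The count of falls rested on all 4 arrays: it was 4 without pachytene replicate 1, 8 without replicate 2, 6 without spermatid replicate 1 and 4 without replicate 2.

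**Figure D5:**
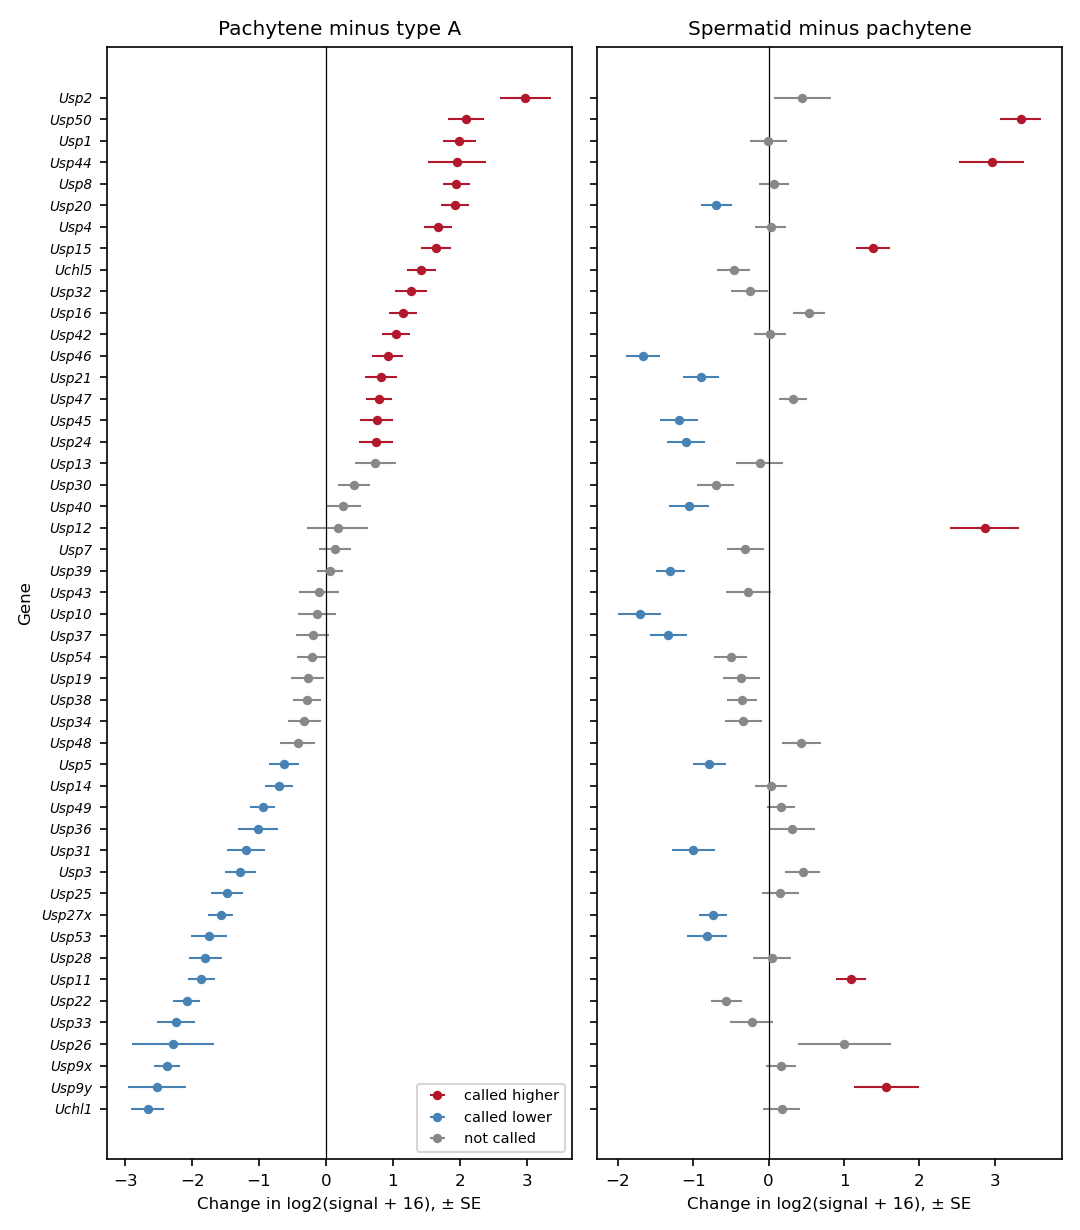
Change in log2(signal + 16) with its standard error for the 48 tested members (y axis, same order in both panels), from type A to pachytene (left) and from pachytene to spermatid (right). Red points were called higher, blue called lower and grey not called; the right panel has 6 red points, led by Usp50 at 3.34, and 13 blue ones.

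Over the whole course from type A spermatogonia to spermatids, 14 members were higher and 23 lower (29.2% and 47.9%, against a background of 28.2% and 41.9%). The median change was -0.65 over members and -0.31 over all genes. Usp50, Usp44, Usp2, Usp12 and Usp15 were the highest, at 5.44 ± 0.27, 4.92 ± 0.43, 3.43 ± 0.38, 3.04 ± 0.45 and 3.04 ± 0.23. With the mean of all probe sets of a gene, Usp12 read 0.52 and Usp15 0.24 in this comparison, and neither was called (adjusted p = 0.0578 and 0.262). The count of falls depended on the scaling of the arrays. Centring arrays on their median or their 75th percentile gave 15 higher and 13 lower in each case, and moved the median of all genes by 0.33 and 0.44 log2.

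No member passed the limma test when the spermatogonia of type B were set against those of type A (background 0% higher and 0% lower). At an unadjusted p under 0.05, 2 members were higher and 0 lower, and the smallest adjusted p of a member was 0.487. Without type B replicate 1, Usp1, Usp2 and Usp50 were higher (1.12 ± 0.22, 1.10 ± 0.22 and 1.14 ± 0.245, adjusted p = 0.0135, 0.0162 and 0.0223) and Usp9y lower (-1.22 ± 0.25, adjusted p = 0.0175). With that array left out, 1158 of all genes were higher and 198 lower. For Usp1, Usp2 and Usp50 and also for Usp44, type B replicate 2 lay between replicate 1 and the pachytene arrays. The excess of replicate 2 over replicate 1 was 30.2% of the pachytene excess for Usp1, 18.2% for Usp2, 28.6% for Usp50 and 33.9% for Usp44. Most members did not share this. Of the 17 members that rose to pachytene, 7 read higher in replicate 2 than in replicate 1. Over these 17 the excess had a median of -2.46% and ran from -95.6% to 33.9%.

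Several genes had probe sets that moved in opposite directions. Of the 126 probe sets, 111 could be tested among 24514, and from type A to spermatid 6 genes held probe sets called both ways: Usp12, Usp15, Usp25, Usp32, Usp4 and Usp47. The spermatid rise of Usp12 was measured by its brightest probe set, while another read 111.9 and 104.3 in pachytene and 66.0 and 55.2 in spermatid arrays and fell by 0.70 ± 0.22 (adjusted p = 0.0438). With the mean of all its probe sets Usp12 rose by 0.74. For Usp32, the brightest probe set rose from 1043 and 673.6 in type A to 2107 and 1982 in pachytene, while another fell from 276.9 and 95.3 to 47.6 and 38.9, and the mean of all its probe sets read -0.40 without being called. The fall of Usp31 to spermatids also turned, to 0.047, with the mean of its probe sets. Over all members this choice gave 11 rises to pachytene instead of 17, and 6 members higher in spermatids than in type A instead of 14. The counts over all genes with this choice, and of all genes with opposed probe sets, are not given here. For Usp15, the brightest probe set rose, a second read 0.10 ± 0.21 from type A to spermatid, and another fell by 1.24 ± 0.31. With the mean of all its probe sets Usp15 was not called in either step (0.18 to pachytene and 0.06 to spermatids). All 7 probe sets of Usp9x fell to pachytene. In spermatids 1 of them rose again by 1.74 ± 0.24 (adjusted p = 0.00111), from 37.1 and 41.7 to 173.9 and 164.5, and the other 6 did not pass. Usp7 likewise had 1 of 7 probe sets that rose to spermatids (1.22 ± 0.35, adjusted p = 0.0323). Which transcript forms these probe sets cover was not tested.

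Other deubiquitinase families and partner genes are given beside the shares of all genes, 27.2% higher and 35.6% lower to pachytene and 15.9% and 19% from there to spermatids. Of 34 tested genes of the OTU, Josephin, JAMM, MINDY and related groups, 11 rose and 8 fell to pachytene, with a median of 0.00851, and 6 rose and 11 fell from there to spermatids. Mindy4 rose by 3.75 ± 0.49 to pachytene, Otub2 by 2.10 ± 0.52 and Zup1 by 2.10 ± 0.22, while Mpnd fell by 2.99 ± 0.21, Tnfaip3 by 2.51 ± 0.52 and Otud5 by 2.44 ± 0.27. In spermatids Otub2 read 1433 and 1782 against 116 and 104.7 in pachytene, and Stambpl1 945.8 and 1030 against 120.8 and 93.8. These rises were 3.68 ± 0.52 and 3.03 ± 0.27. Of 20 tested partners of the proteases, 7 rose and 4 fell to pachytene, and 2 rose and 4 fell to spermatids. Nfrkb, which holds Uchl5 in the INO80 complex, had the largest fall to spermatids among them (-1.89 ± 0.22). Of 3 tested E1 enzymes, which activate ubiquitin or a ubiquitin-like protein, all 3 fell to pachytene. The Y-linked Uba1y had the largest fall at -3.82 ± 0.28, and rose by 2.51 ± 0.28 to spermatids.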

How the data were processed

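Each probe set has 1 linear intensity per array, deposited by the authors. The submitters' processing notes name MAS5 as the tool, with no version given, and detection calls were not used here. With 2% of probe sets trimmed at each end, every array averaged 125, while array medians ran from 33.7 to 51.9. Precision is limited by there being 2 arrays per stage.

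Of 45101 probe sets, 34945 listed exactly 1 gene, 932 several, 9160 none, and 64 were controls. Names were updated through Entrez identifiers with the GRCm38.p6 gene table (34741 matched). The probe set of highest mean stood for a gene, which was tested when it lay above the array median on at least 2 of 8 arrays (14155 genes). Values were log2(intensity + 16). The stages were tested in R 4.3.3 with limma 3.58.1 (1 mean per stage fitted over all 8 arrays, eBayes without trend, 4 residual degrees of freedom, two-sided), Benjamini-Hochberg adjusted within each of 5 comparisons. The fit was also run on simulated data with independent noise and few changed genes. That setting is unlike these arrays, so the run does not measure the errors made here. A gap between replicates of any group widens every standard error.

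The planned test of Uchl1 against Uchl3 used the probe set listed for Uchl3 and Uchl4, since Uchl3 had none of its own. Named were the Uchl genes, the sex-linked members, up to 8 called members with the largest change per direction, and genes with opposed probe sets; others were named by role group. The members and lists were chosen with earlier results of these data known. The correlation between same-numbered replicates ran from -0.175 to 0.169 over the 6 pairs of stages, so the numbers were not taken to pair the samples. All 8 columns were used.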

Additional observations from a re-analysis of the deposited data

How the results depend on the processing

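Each count was recomputed under 18 other settings: pseudocounts of 4 and 64, no filter, quantile normalization, centring on the 75th percentile or the median, the mean of all probe sets of a gene, an intensity trend, the arrays of the 2 groups alone, the replicate block, and each array left out. Using the mean of all probe sets, 11 members rose to pachytene instead of 17, and 6 were higher in spermatids than in type A instead of 14. With this choice Usp31 read 0.047 from pachytene to spermatid, Usp47 -0.015 from type A to spermatid, and Usp32 -0.40, -0.36 and -0.49 in pachytene against type A, pachytene against type B and spermatid against type A, all of opposite sign to the reported values and none called. Centring on the 75th percentile or the median gave 13 falls from type A to spermatid instead of 23. Leaving out 1 array gave 0 to 3 rises and 0 to 1 falls from type A to type B, and 4 to 15 falls from pachytene to spermatid. With the replicate block, 18 members rose and 17 fell to pachytene, and it moved no count by over 1.5 times. No called member changed direction under the 3 scalings. The change of Uchl1 against the shared probe set ran from -4.06 to -3.42 without single arrays, where the exact permutation p, at the smallest value that it can take, says nothing of stability. Of the 34 calls to pachytene and the 19 to spermatids, 20 and 8 held under all 18 settings. How many calls over all genes held under these settings is not given here, so the loss of calls cannot be read as particular to the members. MAS5 detection calls were not used here, so values near background have no lower bound.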
